A study of Rattus norvegicus with 62 samples.

Results

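The M-current and calcium-activated potassium channel genes are 9 of the 40982 genes counted in rat L4 dorsal root ganglia: Kcnq3, Kcnq5, Kcnma1, Kcnmb1, Kcnmb4, Kcnn1, Kcnn2, Kcnn3 and Kcnn4. They were chosen by gene symbol, and each was found once in both count tables. Poly-A RNA of whole ganglia was sequenced after chronic constriction injury (CCI), in which loose ligatures around the sciatic nerve produce lasting pain behaviour. Ganglia of the injured (ipsilateral) side were compared with those of the opposite (contralateral) side of injured rats, in males at 24 h (6 libraries a side), 1 week (7 a side) and 5 weeks (5 a side), and in females at 1 week (7 a side) and 5 weeks (6 a side). The opposite ganglia therefore come from injured rats too, and uninjured or sham-operated rats were not analysed here. The labels used here give no strain, age or genetic change. The question named by the series title is how the 2 sexes differ while neuropathic pain resolves.

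M channels are slow, non-inactivating potassium channels built from Kv7 subunits, the products of the Kcnq genes. They open near the resting potential, hold back repetitive firing, and close when receptors coupled to Gq deplete the membrane lipid PIP2. Calcium-activated channels translate calcium entry into potassium efflux. The large-conductance BK channel (pore Kcnma1, accessory beta subunits from the Kcnmb genes) also needs depolarization and shapes spike repolarization, whereas the small-conductance SK channels (Kcnn1 to Kcnn3) and the intermediate-conductance channel (Kcnn4) sense calcium through bound calmodulin and carry the afterhyperpolarization. In sensory neurons these channels are studied as brakes on excitability.

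The 62 libraries held 16.9 to 33.5 M counts each. Males at 1 and 5 weeks stand in the first count table (24 libraries), and females and males at 24 h in the second (38 libraries), so sex cannot be told apart from table at 1 and 5 weeks, nor the step from 24 h to 1 week in males. Atf3, a transcription factor induced by axon injury, rose on the injured side in all 5 arms (log2 fold changes 4.46 to 5.27), as did the growth-cone gene Gap43 (0.36 to 1.75). All 12 neuronal markers were counted in every group. Same-numbered libraries are labelled as one animal in the second table only. At 24 h the libraries numbered 5 and 6 went against that label: with group means removed, r over genes was -0.01 and -0.02 within the numbers, and 0.27 and 0.13 between opposite 5 and injured 6 and between opposite 6 and injured 5. Atf3 matched the side labels there, at 6.58 to 13.4 CPM in the opposite and 160 to 376 in the injured ganglia, but pair tallies and the replicate block at 24 h rest on those numbers. For males at 1 and 5 weeks the labels do not say that libraries came from separate animals, and p-values there measure the spread between libraries.

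Kcnn2 fell on the injured side in all 5 arms, Kcnq5 fell and Kcnmb4 rose in the 4 arms at 1 and 5 weeks, and Kcnma1 fell in 3 of those and rose in females at 5 weeks. Kcnq3 fell in females at 1 week, rose in females at 5 weeks and passed the test in no male arm. Kcnn1, Kcnn3, Kcnn4 and Kcnmb1 passed it in no arm. Genes were called at an adjusted p under 0.05 in edgeR's quasi-likelihood test over all genes tested, and all 9 members passed the filter on low counts. Beside the members, the share of all genes called gives the background. In males at 24 h, 1 member was lower and 0 were higher, where 5.9% of all genes were lower and 8.23% higher (14.1% called). In males at 1 week 3 members were lower and 1 higher, where 23.4% of genes were lower and 23.6% higher (47% called). At 5 weeks again 3 and 1 were, against 18.7% and 16% (34.7% called). In females at 1 week 4 members were lower and 1 higher, against 21.8% and 23.9% (45.7% called), and at 5 weeks 2 lower and 3 higher, against 19.1% and 22.9% (42% called). Since these shares are high at 1 and 5 weeks, the counts of 4 or 5 of 9 members stand near the background there, and the results lie in which genes moved. The median member log2 fold change was -0.08, 0.01 and 0.05 in males at 24 h, 1 week and 5 weeks, and -0.49 and 0.14 in females at 1 and 5 weeks. Over all genes tested it lay between -0.01 and 0.01.

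**Figure D1:**
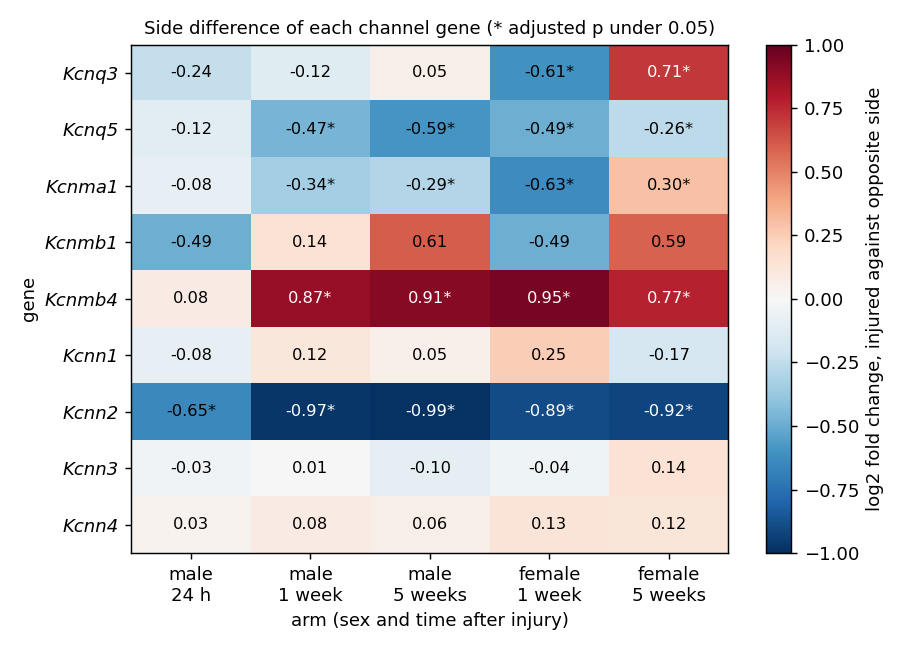
Log2 fold change of the injured against the opposite side (colour and number) for each of the 9 genes in each arm. An asterisk marks an adjusted p under 0.05. Kcnn2 is marked in all 5 arms, Kcnmb4 and Kcnq5 in the 4 arms at 1 and 5 weeks, and Kcnq3 has opposite signs in the 2 female arms (-0.61 and 0.71).

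Promoter sequences were available from RefSeq (build GRCr8) for 6 of the 9 members, as 250 bases before the annotated gene start, which need not be where transcription starts in ganglia. Those of Kcnmb4 and Kcnq5 are shown because these genes moved in opposite directions in the same 4 arms. Capitals mark GC boxes (GGGCGG, read on both strands), a motif bound by Sp-family factors.

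Kcnmb4, chr7:54005102-54005351, minus strand: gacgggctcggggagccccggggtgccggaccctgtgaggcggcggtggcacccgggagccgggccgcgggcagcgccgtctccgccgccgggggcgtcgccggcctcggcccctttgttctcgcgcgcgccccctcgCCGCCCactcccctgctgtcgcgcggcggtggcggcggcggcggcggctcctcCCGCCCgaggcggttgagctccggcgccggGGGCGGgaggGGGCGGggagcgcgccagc

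Kcnq5, chr9:31891282-31891531, minus strand: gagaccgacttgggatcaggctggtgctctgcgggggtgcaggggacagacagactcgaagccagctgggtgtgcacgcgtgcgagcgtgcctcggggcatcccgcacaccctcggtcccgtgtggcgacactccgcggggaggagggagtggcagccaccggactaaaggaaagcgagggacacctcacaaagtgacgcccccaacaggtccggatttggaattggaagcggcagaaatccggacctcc

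The Kcnmb4 window held 4 GC boxes, at 112, 59, 29 and 19 bases before the start, and 84.4% of its bases were G or C. The Kcnq5 window held none and was 65.2% G or C. The window of Kcnma1, the pore partner of Kcnmb4, held 5, counting overlapping matches, and those of Kcnmb1, Kcnn2 and Kcnn3 held none. Over all 33469 promoters of the same length, 30.5% held a GC box and the median G and C content was 51.2%. None of the 6 windows held an AP-1 motif (TGANTCA, in 6.34% of all promoters), the motif of the factor family that Atf3 partners with. None held a CRE (TGACGTCA, 1.59%), a TATA box (TATAAA, 12.9%), the left part of the RE1 element of the repressor Rest (TTCAGCACC, 0.305%), an E2F motif (TTTCGCGC, 0.248%) or a CArG box (1.5%). The Kcnn2 window held 1 STAT motif (TTCNNNGAA, 7.67%), at 15 bases before the start. All motifs were searched on both strands, and a match is a description of letters, not of a bound site.

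Levels of different genes were compared as counts per M counts (CPM, on scaled library sizes) per kilobase of exon. On this scale, in the opposite ganglia of males at 1 week, Kcnq5 was highest at 10.2 ± 1.22 (SD, n = 7). Kcnmb4 (7.04 ± 0.583) and Kcnma1 (5.21 ± 0.185) followed. Kcnn3 (4.77), Kcnq3 (3.70), Kcnn4 (3.62), Kcnn1 (3.13) and Kcnn2 (2.61) came next, and Kcnmb1 was lowest at 0.296 ± 0.125. Kcnq5, Kcnmb4 and Kcnma1 stood apart in that order by more than their SDs, and so did Kcnn2 from Kcnmb1. Neighbours between Kcnma1 and Kcnn2 did not. In the opposite ganglia of females at 1 week Kcnq5 led again, at 11.4 ± 1.24 CPM per kb, and Kcnmb1 was last, at 0.306 ± 0.192.

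Kcnq5 encodes an M-channel subunit that also forms channels without other Kv7 subunits. It lies at chr9:23830185-24395984 on the minus strand (build mRatBN7.2, as are all gene positions given here from the count tables). In males at 5 weeks the opposite ganglia had 113, 136, 170, 124 and 138 CPM, and the injured ganglia 81.1, 94.0, 112, 79.7 and 84.9 CPM. All 5 injured values were below all 5 opposite values, a log2 fold change of -0.59 (SE 0.127, adjusted p = 0.000766). Bulk counts cannot tell fewer cells of a type from less RNA per cell, here or for any gene below.

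In males at 1 week Kcnq5 ranged from 112 to 155 CPM (median 124) on the opposite side and from 72.3 to 121 (median 88.4) on the injured side. The groups overlapped, but the injured library was the lower one in 7 of 7 pairs of the same number (log2 fold change -0.47, SE 0.106, adjusted p = 0.000912). Females at 1 week gave 121 to 161 CPM (median 139) against 71.6 to 126 (median 98.0), again lower in 7 of 7 pairs with overlapping groups (-0.49, SE 0.0961, adjusted p = 7.73e-05). In females at 5 weeks the opposite side ran from 107 to 141 CPM (median 121) and the injured side from 90.8 to 125 (median 102). There the fall was -0.26 (SE 0.104, adjusted p = 0.0429), lower in 6 of 6 pairs. It lost its call when opposite library 1, 2, 3 or 6 or injured library 3, 4, 5 or 6 was left out (adjusted p up to 0.107) and without the low-count filter (adjusted p = 0.0881). With the replicate number as a block its adjusted p was 0.00944.

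At 24 h in males Kcnq5 stood at 96.2 to 133 CPM (median 126) on the opposite and 93.6 to 125 (median 116) on the injured side, with overlapping groups and a log2 fold change of -0.12 (SE 0.104, adjusted p = 0.523). The side effect at 1 week differed from that at 24 h by -0.35 (SE 0.151), which missed the threshold (adjusted p = 0.0852) and passed it with the replicate block (-0.36, adjusted p = 0.00369).

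Kcnq3 encodes a subunit that joins other Kv7 subunits in M channels, and lies at chr7:97730219-98025652 on the minus strand. Its 4 female groups fell into 2 levels that crossed over. At 1 week the opposite side was high, at 22.1 to 25.5 CPM (median 24.4), and the injured side low, at 13.7 to 17.6 (median 15.8). At 5 weeks the opposite side was low, at 11.5 to 16.8 CPM (median 15.0), and the injured side high, at 22.9 to 26.9 (median 23.6). Sides did not overlap at either time.

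The Kcnq3 log2 fold change was -0.61 (SE 0.0784, adjusted p = 3.49e-08) in females at 1 week, lower in 7 of 7 pairs. At 5 weeks it was 0.71 (SE 0.0855, adjusted p = 1.91e-08), higher in 6 of 6 pairs. Both pair tallies follow from sides that did not overlap. The difference between both side effects was 1.32 (SE 0.116, adjusted p = 4.91e-11). The opposite ganglia were also compared by themselves: at 5 weeks they were lower than at 1 week by a log2 difference of -0.70 (SE 0.0827, adjusted p = 1.9e-07). Read against the opposite libraries of the other week, the injured side differed by 0.09 at 1 week (adjusted p = 0.396) and by 0.01 at 5 weeks (adjusted p = 0.947), so neither call of Kcnq3 was made with those controls.

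In males Kcnq3 had overlapping sides at each time. Its opposite and injured ganglia ranged over 14.2 to 23.3 (median 18.1) and 13.0 to 17.6 CPM (median 15.6) at 24 h, and over 17.7 to 25.3 (median 21.4) and 12.8 to 22.6 (median 20.9) at 1 week. At 5 weeks the opposite side had 17.0, 21.0, 20.5, 20.3 and 21.2 CPM and the injured side 19.6, 22.3, 20.9, 19.7 and 21.4. The log2 fold changes were -0.24 (SE 0.0857, adjusted p = 0.0554), -0.12 (SE 0.0907, adjusted p = 0.276) and 0.05 (SE 0.109, adjusted p = 0.752). The 24 h value was called with the replicate block (-0.23, adjusted p = 0.0341), with DESeq2 (-0.24, adjusted p = 0.045), and without opposite library 1 (-0.30, adjusted p = 0.00917), opposite library 2 (-0.27, adjusted p = 0.0362) or injured library 6 (-0.28, adjusted p = 0.0327). Without libraries 5 and 6 of both sides it was -0.17 (adjusted p = 0.286).

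**Figure D2:**
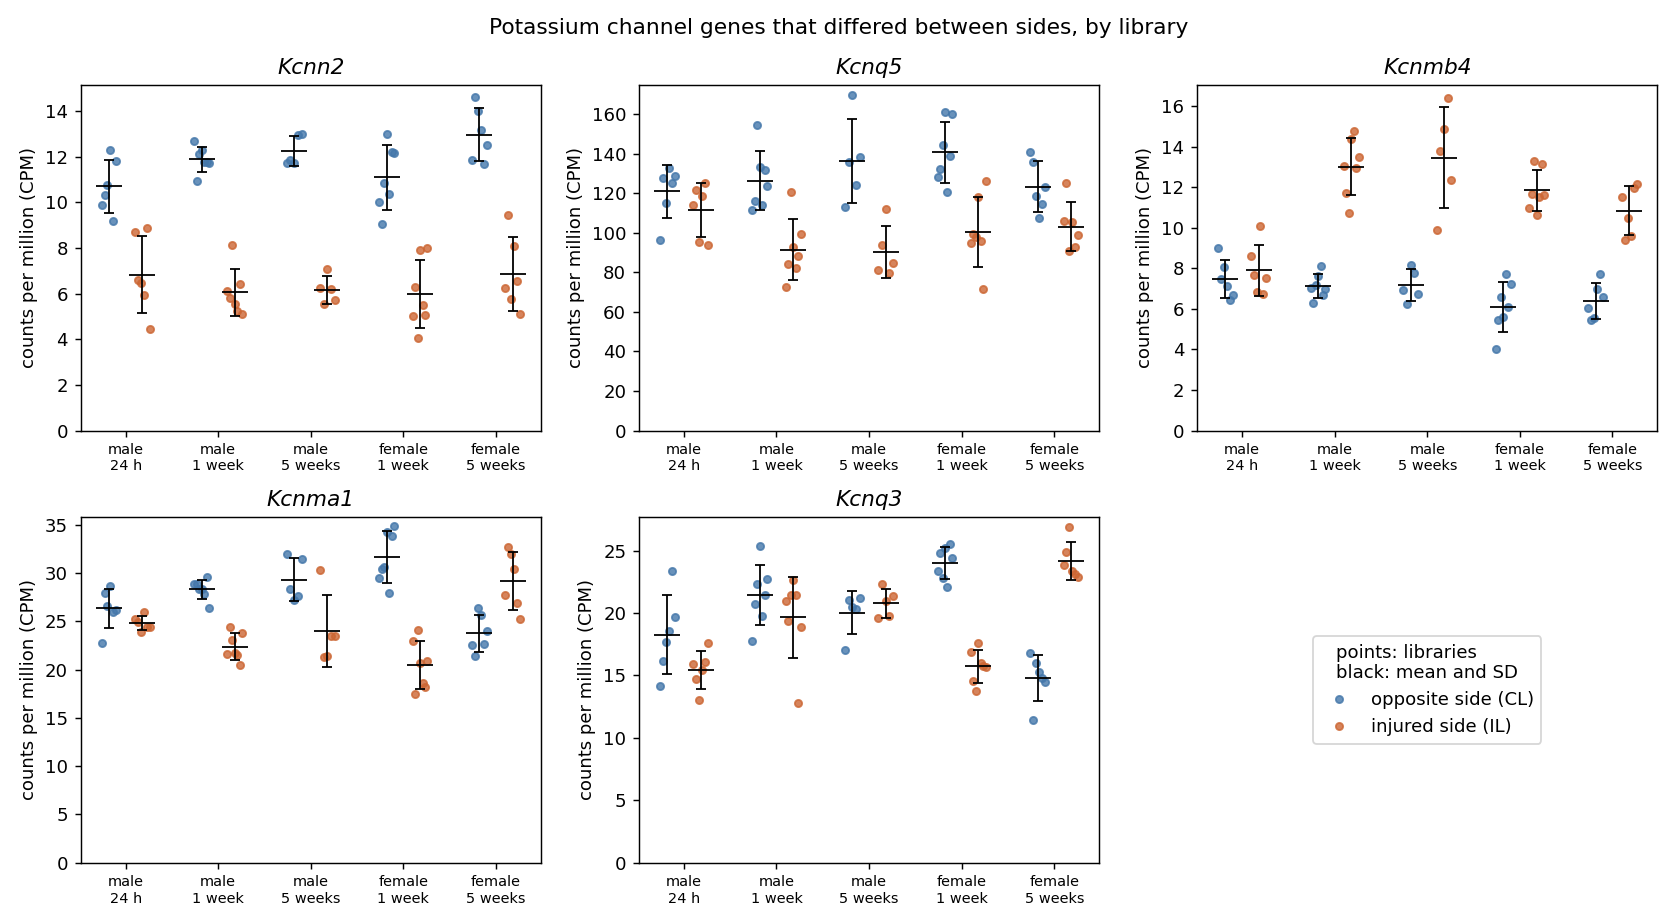
CPM (linear axis from 0) of the 5 genes called in at least 1 arm, by arm. Each point is 1 library, blue for the opposite and orange for the injured side, and black bars give the mean and SD. Kcnn2 is lower on the injured side in each arm, and the Kcnq3 sides change places between the female times, near 24.0 and 15.7 CPM at 1 week and near 14.8 and 24.2 at 5 weeks.

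Kcnma1 encodes the BK pore and lies at chr15:302078-1001198 on the plus strand. In males at 1 week the opposite side ran from 26.4 to 29.5 CPM (median 28.4) and the injured side from 20.5 to 24.4 (median 21.7). The sides did not overlap (log2 fold change -0.34, SE 0.0616, adjusted p = 6.56e-05). In males at 5 weeks the opposite ganglia had 32.0, 28.3, 27.2, 27.6 and 31.5 CPM and the injured ganglia 30.3, 21.3, 21.4, 23.4 and 23.4. Injured library 1 alone reached the opposite range, and the log2 fold change was -0.29 (SE 0.0739, adjusted p = 0.00298), lower in 5 of 5 pairs. At 24 h the ranges were 22.8 to 28.7 (median 26.4) and 23.9 to 26.0 CPM (median 24.7), overlapping, with a log2 fold change of -0.08 (SE 0.0723, adjusted p = 0.496).

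In females at 1 week Kcnma1 stood at 27.9 to 34.9 CPM (median 30.6) on the opposite and 17.5 to 24.1 (median 20.6) on the injured side. The sides did not overlap (log2 fold change -0.63, SE 0.067, adjusted p = 5.06e-10). At 5 weeks it was higher on the injured side, at 25.2 to 32.7 CPM (median 29.1) against 21.4 to 26.3 (median 23.3), with overlapping ranges and 6 of 6 pairs higher (0.30, SE 0.0724, adjusted p = 0.00111). Its opposite ganglia were lower at 5 weeks than at 1 week by a log2 difference of -0.41 (SE 0.0697, adjusted p = 7.81e-05). With the opposite libraries of the other week the 1 week fall was -0.22 (adjusted p = 0.0108), and the 5 week value was -0.12 (adjusted p = 0.182), reversed in sign.

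**Figure D3:**
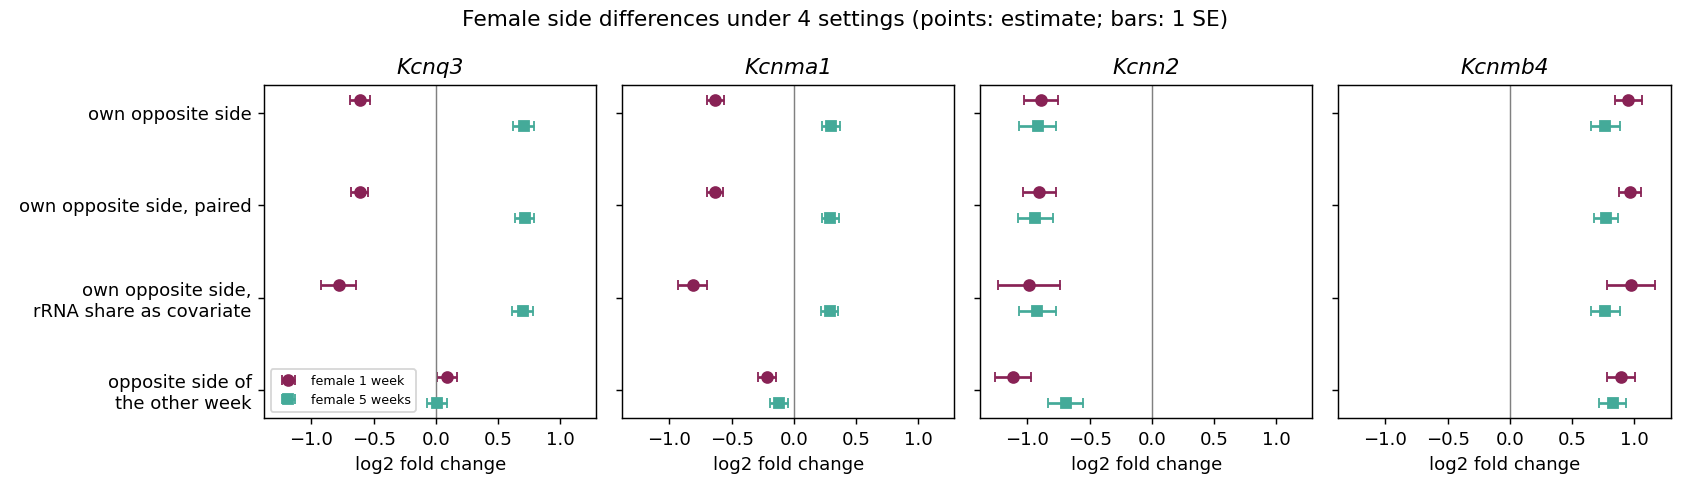
Log2 fold change (points) with 1 SE (bars) of the injured against the opposite side in females at 1 week (circles) and 5 weeks (squares), under 4 settings (lines of each panel). For Kcnq3 the values lie at -0.61 and 0.71 with own controls and at 0.09 and 0.01 with the opposite libraries of the other week. Kcnn2 and Kcnmb4 keep their sign in all 4 settings. In the setting with ribosomal RNA share as covariate, that share and side cannot be told apart at 1 week.

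Ribosomal RNA took 2.25% of counts (SD 0.359, n = 7) in the opposite and 0.970% (SD 0.236, n = 7) in the injured ganglia of females at 1 week. At 5 weeks it took 2.11% and 2.05%. The share ran at 1 week from 1.69% to 2.76% on the opposite and from 0.692% to 1.42% on the injured side, without overlap. With that share as a covariate Kcnq3 differed by -0.78 (adjusted p = 6.03e-05) in females at 1 week and 0.70 at 5 weeks. Because the sides do not overlap in it, share and side cannot be told apart at 1 week by that fit. Of 12 neuronal markers 10 were called in both female arms, 9 of them with the same sign at 1 and 5 weeks. The other, Scn9a, a sodium channel of pain-sensing neurons, fell at 1 week (-0.46) and rose at 5 weeks (0.30). The summed CPM of the 12 neuronal markers was lower on the injured side in both female arms, at 25543 against 30314 and 26317 against 31066 CPM on average.

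Kcnmb4 encodes the BK beta4 subunit, the main beta subunit of neurons, which slows channel gating, and lies at chr7:52066145-52119098 on the minus strand. At 24 h in males the sides overlapped, at 6.45 to 8.99 CPM (median 7.31) on the opposite and 6.75 to 10.1 (median 7.59) on the injured side (log2 fold change 0.08, SE 0.116, adjusted p = 0.712). At 1 week every injured library was above every opposite one, at 10.7 to 14.8 CPM (median 13.1) against 6.28 to 8.10 (median 7.02). This rise was 0.87 on the log2 scale (SE 0.0917, adjusted p = 2.63e-08). It exceeded the 24 h side effect by 0.79 (SE 0.151, adjusted p = 8.27e-05), a difference in which time and count table cannot be told apart.

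In males at 5 weeks Kcnmb4 stood at 6.93, 6.24, 8.17, 7.77 and 6.75 CPM on the opposite side and at 9.89, 13.8, 14.9, 16.4 and 12.4 on the injured side. The sides did not overlap, and the log2 fold change was 0.91 (SE 0.111, adjusted p = 5.68e-07). Females gave 4.02 to 7.74 CPM (median 6.11) against 10.7 to 13.3 (median 11.6) at 1 week, without overlap (0.95, SE 0.106, adjusted p = 1.51e-09). At 5 weeks they gave 5.43 to 7.72 CPM (median 6.32) against 9.39 to 12.1 (median 11.0), again without overlap (0.77, SE 0.116, adjusted p = 1.42e-06). The rise held in 25 of 25 pairs at 1 and 5 weeks, which follows from sides that did not overlap.

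Because Kcnmb4 rose where Kcnma1 fell in 3 arms, the ratio of their CPM per kb was computed in each library, as a description. It averaged 1.35 (SD 0.136) on the opposite and 3.14 (SD 0.460) on the injured side in males at 1 week. At 5 weeks these means were 1.32 (SD 0.220) and 3.11 (SD 0.849). In females they were 1.04 (SD 0.243) and 3.15 (SD 0.464) at 1 week, and 1.45 (SD 0.227) and 2.03 (SD 0.425) at 5 weeks. At 24 h in males the means were 1.54 (SD 0.304) and 1.71 (SD 0.222), closer than at the other times. A transcript ratio is not a subunit ratio in the channel.

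Kcnmb1 encodes the BK beta1 subunit, best known from vascular smooth muscle, and lies at chr10:18557510-18614824 on the plus strand. It was counted with 5 to 97 reads a library, and it overlaps the neuronal gene Kcnip1 on the other strand. The library kit marks strand, but the strand setting of the counting is not given in the sources used here, so part of its count could be Kcnip1 reads. Kcnip1 fell at 1 and 5 weeks in both sexes (-0.35 to -0.60), and its r with Kcnmb1 over the 62 libraries was 0.02. Opposite and injured means of Kcnmb1 were 1.39 and 0.969 CPM in males at 24 h, 1.90 and 2.08 at 1 week and 0.837 and 1.27 at 5 weeks. In females they were 1.97 and 1.40 at 1 week and 0.895 and 1.37 at 5 weeks. The sides overlapped in each arm, with log2 fold changes of -0.49, 0.14, 0.61, -0.49 and 0.59 in that order (SE 0.25 to 0.448, adjusted p 0.198 to 0.675). With the replicate block the value in males at 5 weeks was called (0.62, adjusted p = 0.0445).

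Kcnmb1 levels followed smooth muscle and pericyte markers across libraries. With the summed CPM of 10 such markers its r on the log2 scale was 0.76 over 62 libraries (0.68 over the first table's 24 and 0.79 over the second's 38). For single genes the mean of each count table was subtracted, which was not done for the marker sum or for Kcnip1. The 3 genes with the most similar pattern were Myl9 (r = 0.75), Tagln (r = 0.75) and Acta2 (r = 0.75), all smooth muscle cytoskeleton genes. Tagln and Acta2 are also among the 10 markers summed, so their r is not separate from that of the sum. The marker sum ranged from 143 to 559 CPM, and the library with the highest Kcnmb1, 4.14 CPM, had the highest sum. In females at 5 weeks 5 of the 10 markers rose on the injured side and 0 fell, with a median log2 fold change of 0.62. In the opposite ganglia of males, Kcnmb1 was lower at 5 weeks than at 1 week by -1.19 on the log2 scale (SE 0.318, adjusted p = 0.0138). The part of vessel content in these values was not tested.

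**Figure D4:**
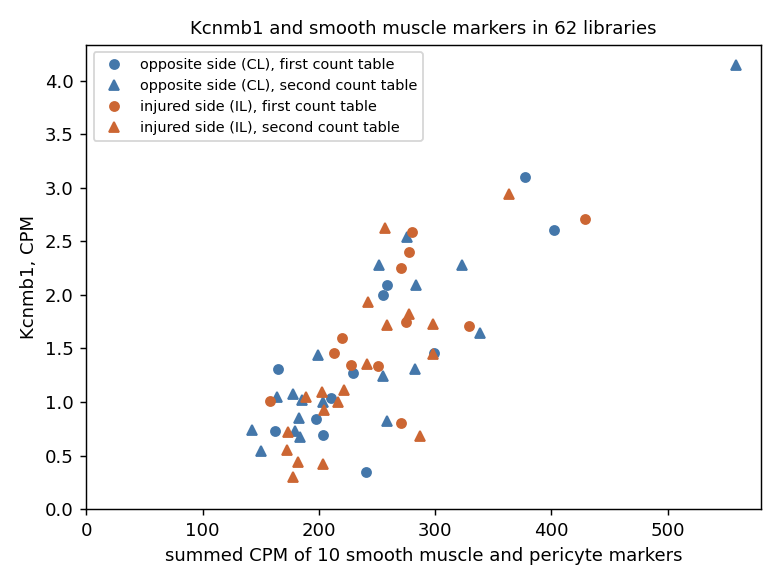
Kcnmb1 CPM (vertical) against the summed CPM of 10 smooth muscle and pericyte markers (horizontal) in 62 libraries, on linear axes. Blue and orange mark the opposite and injured side, circles and triangles the first and second count table. The points rise together (r = 0.76 on the log2 scale), up to the library with 4.14 CPM of Kcnmb1 and a sum of 559 CPM.

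Kcnn2 encodes SK2, an apamin-sensitive SK channel, and lies at chr18:37817966-38258347 on the plus strand. On the other strand it overlaps a lncRNA gene with a mean of 5.04 counts in the first count table, the only one in which this was looked at. Kcnn2 was the one member called in males at 24 h, at 9.19 to 12.3 CPM (median 10.5) on the opposite and 4.45 to 8.85 (median 6.52) on the injured side. The ranges did not overlap (log2 fold change -0.65, SE 0.149, adjusted p = 0.00199). In males at 1 week the sides were farther apart, at 10.9 to 12.7 CPM (median 11.8) against 5.10 to 8.12 (median 5.81). The log2 fold change was -0.97 (SE 0.0785, adjusted p = 2.78e-10).

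At 5 weeks in males the opposite ganglia had 11.7, 11.8, 11.7, 13.0 and 13.0 CPM of Kcnn2 and the injured ganglia 6.23, 5.54, 7.10, 6.20 and 5.74. Each injured value was below each opposite value (log2 fold change -0.99, SE 0.095, adjusted p = 1.52e-08). In females the ranges were 9.06 to 13.0 CPM (median 10.9) against 4.07 to 7.99 (median 5.50) at 1 week, with no overlap (-0.89, SE 0.138, adjusted p = 1.43e-06). At 5 weeks they were 11.7 to 14.6 CPM (median 12.8) against 5.09 to 9.44 (median 6.41), also without overlap (-0.92, SE 0.148, adjusted p = 4.8e-06). The injured library was lower in 31 of 31 pairs, which follows from sides that did not overlap. Kcnn2 was called under every alternative run. The side effects differed between 1 week and 24 h in males by -0.33 (SE 0.176, adjusted p = 0.188), between females and males by 0.07 at 1 week (SE 0.169, adjusted p = 0.943) and by 0.04 at 5 weeks (SE 0.193, adjusted p = 0.970).

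Kcnn1 (SK1, chr16:18574858-18597780, plus strand) had overlapping sides in each arm, between 10.8 and 30.6 CPM over all libraries. Its log2 fold changes ran from -0.17 (SE 0.143, adjusted p = 0.359) in females at 5 weeks to 0.25 (SE 0.131, adjusted p = 0.123) at 1 week. The latter was called without injured library 1, at 0.34 (adjusted p = 0.0181). The injured ganglia of females at 1 week spread widely, from 12.4 to 30.6 CPM (SD 5.71) against an SD of 2.28 on the opposite side.

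Kcnn3 (SK3, chr2:174929846-175088910, plus strand) ranged from 41.5 to 73.5 CPM over all libraries. Its group means lay between 50.2 and 58.1 CPM, and its log2 fold changes between -0.10 (SE 0.126, males at 5 weeks) and 0.14 (SE 0.106, females at 5 weeks). In males at 5 weeks the injured side was lower in 5 of 5 pairs (adjusted p = 0.599). In females at 5 weeks it was higher in 6 of 6 pairs, at 44.1 to 63.8 CPM (median 55.8) against 41.5 to 57.4 (median 49.3). The female value had an adjusted p of 0.282 and was called with the replicate block (0.15, adjusted p = 0.0187), as was its difference from 1 week (0.20, adjusted p = 0.0411, against 0.447 without the block).

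Kcnn4, the intermediate-conductance channel that blood and immune cells also carry (chr1:79956380-79974354, plus strand), ranged from 8.07 to 16.5 CPM. Its log2 fold changes of 0.03 to 0.13 were above 0 in all 5 arms and passed the test in none (SE 0.0867 to 0.125, adjusted p 0.372 to 0.913). Of 10 macrophage markers, 8 rose on the injured side in males at 1 week and in both female arms. In males at 5 weeks 4 of these markers rose and 1 fell, and at 24 h 0 passed. The mean marker sum went from 188 to 546 CPM in males at 1 week and from 135 to 373 in females at 1 week. Of 9 erythrocyte markers, 9 rose in males at 1 week, 1 fell at 24 h and 0 passed in the other arms. Of 9 neutrophil and mast cell markers tested, 7 rose in males at 1 week and 4 fell at 24 h. In males at 5 weeks and females at 5 weeks 1 of these rose, and in females at 1 week 1 fell. The part of blood and immune cells in the Kcnn4 level was not tested.

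**Figure D5:**
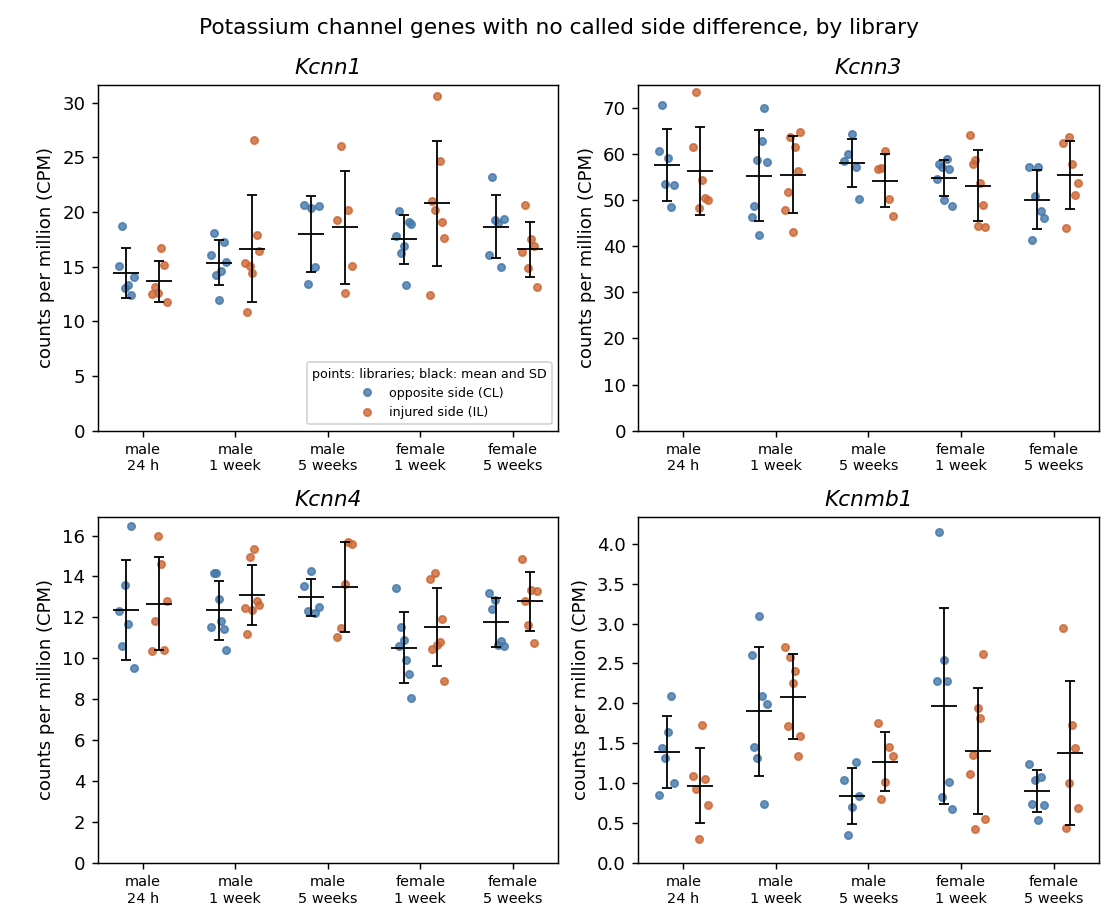
CPM (linear axis from 0) of the 4 genes called in no arm, by arm. Points are libraries (blue opposite, orange injured side) and black bars the mean and SD. The sides overlap in each panel and arm, and Kcnmb1 is lowest, from 0.302 to 4.14 CPM.

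Tests of the differences between side effects placed the contrasts in time and sex on 3 members. Between 1 week and 24 h in males, 1 member was lower and 1 higher, against 12% of genes lower and 11% higher (23% called): Kcnmb4 (above) and Kcnma1, whose side effect was lower by -0.25 (SE 0.096, adjusted p = 0.046). The latter was not called with RLE scaling (adjusted p = 0.0524), without the low-count filter (adjusted p = 0.0837) or without the 24 h libraries numbered 5 and 6 (-0.26, adjusted p = 0.0972). Between 5 weeks and 1 week in males 0 members were called, where 0.132% of genes were lower and 0.079% higher (0.211% called). In females 2 were higher and 0 lower, against 7.66% and 5.88% of genes (13.5% called). Those were Kcnq3 (above) and Kcnma1 (0.93, SE 0.0986, adjusted p = 4.87e-09). The 0 in males stands beside 0 members with an unadjusted p under 0.05 and 0 called with DESeq2.

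Between the sexes at 1 week 1 member was called, lower in females, against 0.698% of genes lower and 0.416% higher (1.11% called): Kcnq3, by -0.50 (SE 0.12, adjusted p = 0.0169). Kcnma1 differed by -0.30 (SE 0.0921, adjusted p = 0.0959), called with the replicate block (-0.31, adjusted p = 0.0313). At 5 weeks 2 were called, both higher in females, against 1.55% of genes higher and 0.562% lower (2.11% called): Kcnq3 by 0.62 (SE 0.138, adjusted p = 0.00455) and Kcnma1 by 0.55 (SE 0.105, adjusted p = 0.000474). Both female side effects rest on the female opposite and injured ganglia given above. In the opposite ganglia Kcnq3 and Kcnma1 were the members called between 5 weeks and 1 week (2 lower and 0 higher, against 7.55% and 3.13% of genes, 10.7% called). On the injured side the mean CPM went the other way from 1 to 5 weeks. It went from 15.7 to 24.2 for Kcnq3 and from 20.4 to 29.1 for Kcnma1, a change that was not tested. In the male opposite ganglia 1 was lower, Kcnmb1, and 0 higher, against 6.2% and 7.34% of genes (13.5% called).

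Other genes of the same channels came from lists of known partners. Counts from lists, here and below, stand beside the share of all genes called in the same arm. That share was 14.1%, 47% and 34.7% in males at 24 h, 1 week and 5 weeks, and 45.7% and 42% in females at 1 and 5 weeks. No list was tested as a set. Of 13 further Kv7, BK, SK and Slo family subunits tested, 1 rose and 3 fell in males at 24 h, 3 and 6 at 1 week, and 2 and 5 at 5 weeks. In females 3 rose and 6 fell at 1 week, and 3 and 3 at 5 weeks. Kcne3, an accessory Kv7 subunit, rose by 0.70 at 24 h and 1.11 at 1 week in males and by 1.15 and 0.43 in females, and stood at 0.51 without a call in males at 5 weeks. Among BK gamma-type subunits, Lrrc55 fell in all 5 arms (-0.38 to -0.66) and so did Lingo1, a BK-associated protein (-0.44 to -0.69). Lrrc38 rose by 2.11 to 3.23 in the arms at 1 and 5 weeks, from opposite means of at most 0.19 CPM. The sodium-activated channel genes Kcnt1 (-0.24 to -0.34 in the 4 arms at 1 and 5 weeks) and Kcnt2 (-0.57 and -0.78 in males, -1.20 in females at 1 week) fell, and Kcnt2 in females at 5 weeks was at -0.17 without a call.

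Listed regulators of the M-current covered receptors, PIP2, calmodulin, membrane anchoring, kinases and transcription, among others. Of the 24 tested, 3 rose and 0 fell in males at 24 h, 4 and 11 at 1 week and 3 and 8 at 5 weeks. In females 3 rose and 11 fell at 1 week, and 9 rose and 5 fell at 5 weeks. Bdkrb2, the bradykinin receptor that closes M channels through Gq, rose in all 5 arms (0.66 to 0.88). So did Pip5k1b, the gene of a kinase that makes PIP2 (0.26 to 1.01). Calm2, a calmodulin gene, fell at 1 and 5 weeks in both sexes (-0.26 to -0.41). Rest, a repressor of Kcnq genes, rose in females at 5 weeks (0.65) and in males at 1 and 5 weeks (0.26, 0.27). It was not among the genes of this list that rose in females at 1 week or in males at 24 h.

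Of 14 regulators of SK and intermediate-conductance channels, 3 rose and 1 fell in males at 24 h, 2 and 5 at 1 week and 3 and 3 at 5 weeks, and in females 2 and 3 at 1 week and 3 and 4 at 5 weeks. Ppp2ca, the catalytic phosphatase subunit bound to SK channels, rose in all 5 arms (0.25 to 0.60), as did Nme2, a histidine kinase that activates Kcnn4 (0.18 to 0.44). Mtmr6, a lipid phosphatase that inhibits Kcnn4, fell at 1 and 5 weeks in both sexes (-0.37 to -0.49). Of 19 genes of calcium entry and release, 3 rose and 3 fell in males at 24 h, 6 and 7 at 1 week and 3 and 6 at 5 weeks, and in females 3 and 10 at 1 week and 5 and 7 at 5 weeks. Cacna1b, the N-type channel, rose in all 5 arms (0.16 to 0.23), whereas Stim2, a store calcium sensor, fell at 1 and 5 weeks in both sexes (-0.20 to -0.30).

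Neuronal and glial markers moved beside the members. Of 12 neuronal markers 3 rose and 1 fell in males at 24 h, 4 and 7 at 1 week and 4 and 6 at 5 weeks, and in females 5 and 7 at 1 week and 4 and 6 at 5 weeks. Their summed level ranged from 20996 to 27606 CPM in the injured and 27614 to 32600 in the opposite ganglia at 1 and 5 weeks, and from 27754 to 33183 over both sides at 24 h. Of 8 myelinating Schwann cell markers 6 fell at 1 week in each sex, 1 fell in females at 5 weeks, and none rose in any arm. The part of cell makeup in the members' side differences was not tested.

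Across the 62 libraries, genes whose log2 CPM followed a member most closely among 13204 compared were named as a description. The mean of each count table was subtracted first, so the mean difference between tables does not enter r. Side does, as do time and sex where they differ within a table. For Kcnn2 they were Trpm6 (r = 0.95), Rims1 (r = 0.94) and Smad9 (r = 0.94), and for Kcnmb4 Gfra1 (r = 0.92), Ggt5 (r = 0.91) and Ssc5d (r = 0.91). For Kcnq5 they were Prkg2 (r = 0.90), Atrnl1 and Frmpd1 (both r = 0.86), and for Kcnma1 they included Dzank1 and Pclo (both r = 0.87). For Kcnq3 they were Onecut2, Mib1 and Arfgef3 (all r = 0.74). Before group means were removed, Kcnn1, Kcnn3 and Kcnn4 had no gene with an r over 0.60. With the mean of each group removed, r was 0.72 for Trpm6 with Kcnn2, 0.52 for Gfra1 with Kcnmb4, 0.82 for Prkg2 with Kcnq5, 0.71 for Dzank1 with Kcnma1 and 0.43 for Onecut2 with Kcnq3. Among the members themselves r was -0.82 between Kcnmb4 and Kcnn2 and 0.78 between Kcnq5 and Kcnn2, and -0.24 and 0.53 with group means removed.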

How the data were processed

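RNA of L4 ganglia had an integrity number of at least 7.5 and was poly-A selected with a stranded kit, per the labels. Tools in the submitters' processing notes are STAR 2.7.2b, featureCounts 1.6.4, cutadapt 2.5 and bcl2fastq 2.20.0.422, with build mRatBN7.2, and the strand setting is not given in the sources used here. The authors deposited estimated counts for each gene, partly fractional (74.1% and 78.1% of nonzero values are whole in the first and second table). Rounding them for edgeR changed library totals by 0.0014% or less. The written test plan assumed counts. Exon length is the authors' deposited value in bases, of an "other" unit.

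Each table was fitted with edgeR 4.0.16 (R 4.3.3): TMM, filterByExpr with minimum count 10, robust quasi-likelihood test on a group design without block, Benjamini-Hochberg adjustment over all genes. Differences across tables used a joint fit. SEs were obtained from each log2 fold change and its F statistic. CPM is per scaled library size, with a pseudocount of 0.5 for correlations. Alternatives used RLE, no filter, minimum count 50, DESeq2 1.42.0, limma-voom (limma 3.58.1), the replicate block, 2 groups alone, opposite libraries of the other week, ribosomal RNA share as covariate, and leaving out libraries. Same-numbered libraries correlated after group means were removed (median r 0.21 for males at 24 h, 0.43 at 1 week, 0.34 at 5 weeks, 0.29 and 0.33 for females). Every test reported as the first value treats sides as unpaired. Pairs enter only the pair tallies and the replicate block, from the animal codes in the second table and, in the first, because every pair exceeded 0.1. The test was also run on simulated counts, with an outcome not reported here. Those counts held few changed genes and no pairing of libraries, unlike these data.

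Members, lists and tests were chosen with earlier results of these data known. Named genes are all 9 members, Atf3 and Gap43, the subunits and regulators with the smallest p-values of each list and the 3 genes most like each member, of which some are not reported here. Scn9a, Kcnip1 and the examples across arms were picked after their values were seen. Markers of other cell types gave, as members higher and lower in males at 24 h, 1 week and 5 weeks and females at 1 and 5 weeks: satellite glia (8 tested) 0 and 0, 1 and 4, 1 and 2, 0 and 2, 2 and 1. Endothelium (9) gave 0 and 0, 0 and 1, 0 and 0, 0 and 1, 3 and 0. Smooth muscle (10) gave 0 and 0, 1 and 0, 0 and 0, 0 and 1, 5 and 0. Fibroblast (8) gave 0 and 2, 2 and 0, 0 and 0, 0 and 1, 6 and 0. Erythrocyte (9) gave 0 and 1, 9 and 0, then 0 and 0 in the other arms. B cell (6) gave 0 and 1, 5 and 0, 1 and 0, 1 and 1, 1 and 0. T and NK cell (5 or 7 tested) gave 0 at 24 h, 1 and 0, 0 and 0, 1 and 0, 1 and 0. Neutrophil and mast cell (9) gave 0 and 4, 7 and 0, 1 and 0, 0 and 1, 1 and 0. Muscle and adipocyte (8 or 6) gave 0 and 3, 1 and 2, 1 and 1, 1 and 4, 1 and 0.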

Additional observations from a re-analysis of the deposited data

Results flagged for a closer look

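In 3 of 90 groups of libraries (9 genes in 10 groups) 1 library stood far from the others by Dixon's test, where chance gives about 1 in 20. Kcnq3 had 12.8 CPM in injured library 6 of males at 1 week, the next lowest being 18.9. It had 17.0 CPM in opposite library 1 of males at 5 weeks, the next lowest being 20.3. Kcnma1 had 30.3 CPM in injured library 1 of males at 5 weeks, the next highest being 23.4.

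The side effects of 3 members differed between times or sexes by a test of the difference itself. In males from 24 h to 1 week the side effect of Kcnma1 shifted by -0.25 (adjusted p = 0.046) and that of Kcnmb4 by 0.79 (adjusted p = 8.27e-05) on the log2 scale. In females from 1 to 5 weeks Kcnq3 shifted by 1.32 and Kcnma1 by 0.93. Females minus males gave -0.50 for Kcnq3 at 1 week, and 0.62 for Kcnq3 and 0.55 for Kcnma1 at 5 weeks. Sex in the last of these, and time in the step from 24 h to 1 week, cannot be told apart from count table.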

How the results depend on the processing

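Kcnn2 in all 5 arms and Kcnmb4 at 1 and 5 weeks kept their direction and call under every alternative run. The number of lower members in males at 24 h was 2 with DESeq2 and with the replicate block, and 1 to 2 with 1 library left out. In females at 5 weeks it was 1 without the low-count filter and 1 to 2 with 1 library left out. Higher members numbered 1 to 2 in females at 1 week with 1 library left out, and 2 in males at 5 weeks with the replicate block. With the opposite libraries of the other week they numbered 2 in males at 1 week and 1 in females at 5 weeks. Kcnq3 in females at 1 week was then reversed to 0.0898 and Kcnma1 in females at 5 weeks to -0.12. For 1 week against 24 h in males, lower members numbered 0 with RLE, 0 without the filter and 2 with the block, and for females against males at 1 week 2 with the block. The block changed no other call than those given above beside each gene. Over all genes, males at 24 h gave 1604 calls with 2 groups alone (against 2560), and females at 1 week 4060 with the ribosomal covariate (against 8276). Male 5 weeks against 1 week gave 497 with the block and 139 with DESeq2 (against 40). The sex differences gave 517 (against 214) and 697 (against 405) with the block. Without male 24 h libraries numbered 5 and 6 on both sides, a setting chosen after seeing the data, Kcnn2 was at -0.65 (adjusted p = 0.0129) and 1457 genes were called at 24 h, and for 1 week against 24 h lower members numbered 0 and Kcnmb4 was at 0.79 (adjusted p = 0.000546). Kcnmb1, with 5 to 97 counts a library, is measured least well, and at minimum count 50 it was not tested in the second table. With 5 to 7 libraries a group, small changes are measured with limited precision.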
